A study of Solenopsis invicta with 32 samples.

Results

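The genes described here are 301 of the 16314 gene models of the fire ant Solenopsis invicta. Their RNA level varied little among gynes of the same treatment and organ. They were chosen from their measured values. CPM, the level used throughout, is a gene's count scaled to the sum of all gene counts of the library, and the spread as the coefficient of variation (CV), the standard deviation over the mean. A gene entered if its median CPM lay from 30 to under 600 and its CV was at most 0.15 in each of the 4 groups, and if the ratio of overwintered to spring-reared medians lay between 0.83 and 1.2 in brain and in ovary. Levels, CVs and treatment ratios of these genes are therefore descriptions of the choice. Nothing in the rule compared brain with ovary, apart from the level range that both organs had to meet. The genes are called stable below for their small spread within groups. The name does not extend to the comparison of organs, where 257 of the 301 differed by the test described below, a share near the background (42.1% of all genes tested were higher and 40.7% lower in brain).

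Gynes are young queens. The study set overwintered gynes against spring-reared ones and sought candidate genes for the plasticity of queen weight. Every gyne was from a monogyne colony, a colony with just 1 reproductive queen, and had the genotype SB/SB at the social supergene, so the compared groups share both. The 4 groups were overwintered brain, spring-reared brain, overwintered ovary and spring-reared ovary, with 8 libraries each, from 16 gynes of as many colonies, each giving a brain and an ovary. The labels give no age of the gynes. The colony codes of all overwintered gynes begin with another prefix than those of the spring-reared gynes, so whatever the prefix marks cannot be told apart from treatment.

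Genes with a steady RNA level serve as references in quantitative PCR, where the level of a gene of interest is set against that of a gene that changes little. Genes needed by every cell, such as those for protein synthesis, protein turnover and energy metabolism, are the usual candidates. A gene that is steady across treatments within an organ can still differ between organs, and a reference is therefore tested in the tissues it is used in. Identifiers come without gene names in the files, and 0 of 16314 were found in the reference gene table. No function is given for any gene, no marker gene of brain or ovary could be checked, and only 6 identifiers are printed.

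Gene counts ranged from 9612985 to 23656547 per library. Libraries were made with Smart-seq2, a method for small RNA amounts that amplifies polyadenylated transcripts, from 1.6 ng of RNA per brain and 8.0 ng per ovary. Unmapped reads made up 6.37 to 26.8% of the reads in brains and 1.86 to 5.17% in ovaries. Each library's profile correlated with the others of its group by a mean Pearson r over genes of 0.920 to 0.962 in brains and 0.952 to 0.981 in ovaries. Earlier results of these data had set 5 libraries apart from their groups, not by this correlation alone. They are replicates 4 and 7 of the spring-reared brains, replicates 1 and 5 of the overwintered ovaries, and replicate 6 of the spring-reared ovaries. The lowest mean r of its group was that of spring-reared brain 7 (0.920), of overwintered ovary 1 (0.952) and of replicate 6 of the spring-reared ovaries (0.971), whereas spring-reared brain 4 (0.928) and overwintered ovary 5 (0.974) were not the lowest.

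The level range alone was met by 3433 genes, 21.0% of all, and the stable genes are 8.77% of these. Of the 3433 genes, 2476 had a CV within the limit in spring-reared ovaries, 1649 in overwintered ovaries, 1337 in overwintered brains and 950 in spring-reared brains. The spring-reared brains were thus the group that fewest genes passed. Among genes that met the level and ratio limits, 276 were kept out by the CV of the spring-reared brains alone, 103 by that of the overwintered brains alone, 91 by that of the overwintered ovaries alone and 13 by that of the spring-reared ovaries alone. A further 101 genes met the level and CV limits and missed the treatment ratio. The 5 libraries set apart include 2 spring-reared brains, and their part in this order was not tested gene by gene. Without those 5 libraries the rule found 443 genes, of which 258 were among the 301, that is 85.7% of the stable genes and 58.2% of the longer list.

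**Figure D1:**
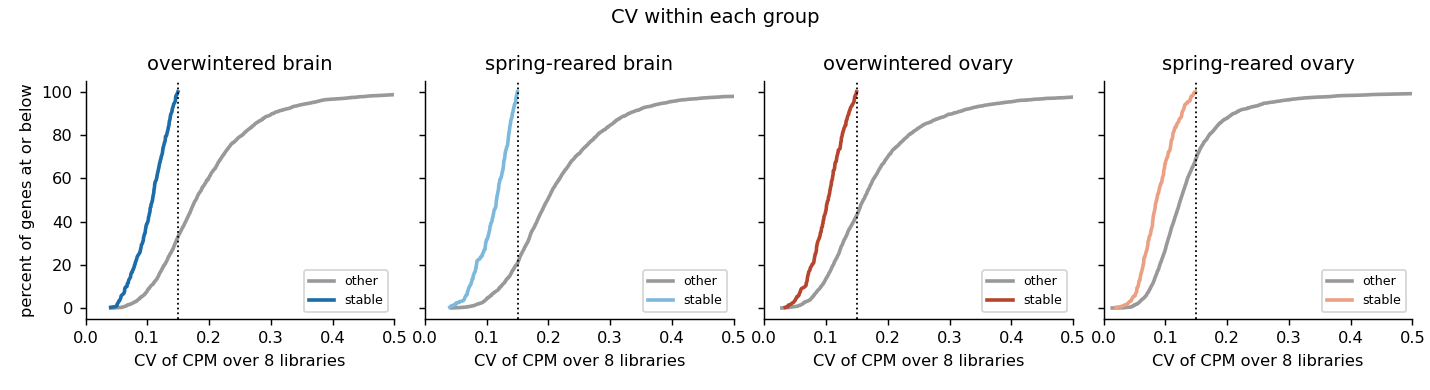
Cumulative percent of genes (vertical axis) at or below a given CV of CPM over 8 libraries (horizontal axis, no unit) in each of the 4 groups, for the 301 stable genes (coloured) and the other 3132 genes of the same level range (grey); the dotted line is the limit of 0.15. The coloured curves end at the limit because the rule set it there, and the grey curve crosses it lowest in spring-reared brains and highest in spring-reared ovaries.

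The median level of the stable genes differed between organs and hardly between treatments. In overwintered brains their group medians ran from 41.1 to 587.9 CPM with a middle value of 171.6 CPM, and in spring-reared brains from 37.0 to 587.7 CPM with a middle value of 169.3 CPM. In overwintered ovaries the medians ran from 32.4 to 590.0 CPM around 228.6 CPM, and in spring-reared ovaries from 34.2 to 599.0 CPM around 230.0 CPM. The middle value thus lay higher in ovary under each treatment. Over the 3433 genes of the level range the middle values were lower, at 93.8 CPM in brains of overwintered gynes, 88.1 CPM in brains of spring-reared gynes, and 117.7 and 121.5 CPM in their ovaries. RNA was measured in whole organs, so fewer cells of a type and less RNA per cell cannot be told apart in any difference between organs given here. The RNA amount per library and the share of unmapped reads, given above, also differed between the organs. Their part in any difference of level or spread between brain and ovary cannot be told apart from that of the organ.

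The middle CV of the stable genes was 0.109 in overwintered brains, 0.116 in spring-reared brains, 0.104 in overwintered ovaries and 0.0859 in spring-reared ovaries. The same values over all genes of the level range were 0.171, 0.190, 0.153 and 0.121. The group in which a stable gene had its highest CV was spring-reared brain for 121 genes, overwintered brain for 87, overwintered ovary for 60 and spring-reared ovary for 33. Sampling of reads was a small share of this spread for most of the stable genes. The CV that counting alone would give had a median of 0.0212 in overwintered brains and 0.0173 in overwintered ovaries. In terms of variance the median over genes was 4.29% of the observed variance in overwintered brains, 3.43% in spring-reared brains, 3.11% in overwintered ovaries and 4.37% in spring-reared ovaries. For single genes the share reached 35.8%, 23.4%, 39.6% and 59.7% in the same order of groups. The lowest count of any stable gene in any library was 348. These counting values cover sampling of reads only, since amplified reads without molecular identifiers are not independent molecules.

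Taken over all 32 libraries, the CV combines the spread within groups and the treatment difference, which the rule limited, with the organ difference, which it limited only through the level range. This CV of the stable genes ran from 0.0783 to 0.742 with a median of 0.224, against 0.316 for the genes of the level range, and is given as a description. The biological CV that edgeR estimated from the spread within groups had a median of 0.135 for the stable genes, 0.179 for the level range and 0.294 for all genes tested. That estimate rests on the same libraries as the rule and is a description too.

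When the stable genes were ordered by the highest of their 4 CVs, the leading gene had a highest CV of 0.0700. Its CPM was 73.2 to 87.1 in overwintered brains with a median of 76.8, and 73.9 to 90.8 in spring-reared brains with a median of 85.4. In overwintered ovaries it was 112.7 to 126.4 CPM with a median of 118.9, and in spring-reared ovaries 107.9 to 127.8 CPM with a median of 122.3. Every ovary therefore lay above every brain for the stable gene whose highest group CV was lowest. Its log2 difference, brain minus ovary, was -0.37 ± 0.06 (SE; edgeR adjusted p = 5.32e-07).

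The gene of rank 2 had a highest CV of 0.0732 and showed the same order of organs at a higher level. It ran from 303.7 to 393.0 CPM over the brains of both treatments and from 403.9 to 528.5 CPM over the ovaries, again without overlap (log2 difference -0.25 ± 0.05 SE; edgeR adjusted p = 7.15e-05). The gene of rank 5 (highest CV 0.0832) was lower still in brain relative to ovary, with medians of 115.1 CPM in overwintered brains, 108.8 CPM in spring-reared brains, 184.8 CPM in overwintered ovaries and 189.5 CPM in spring-reared ovaries. Its log2 difference was -0.57 ± 0.06 (SE; edgeR adjusted p = 3.60e-11).

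The genes of rank 3 and 4 had overlapping organs. Rank 3 (highest CV 0.0811) had medians of 293.4 CPM in overwintered brains, 258.8 in spring-reared brains, 266.5 in overwintered ovaries and 247.3 in spring-reared ovaries. It was called higher in brain by a log2 difference of 0.28 ± 0.05 (SE; edgeR adjusted p = 2.71e-06), which was 0.10 with libraries scaled by total counts (edgeR adjusted p = 0.0220). Rank 4 (highest CV 0.0821) had medians of 488.8, 500.7, 516.6 and 557.4 CPM in the same order of groups. Its log2 difference of 0.08 ± 0.06 did not pass the test (edgeR adjusted p = 0.167; 95% interval -0.03 to 0.19), whereas with total counts it was -0.10 and passed (edgeR adjusted p = 0.0310). For rank 4, then, direction and call both turned with the scaling.

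**Figure D2:**
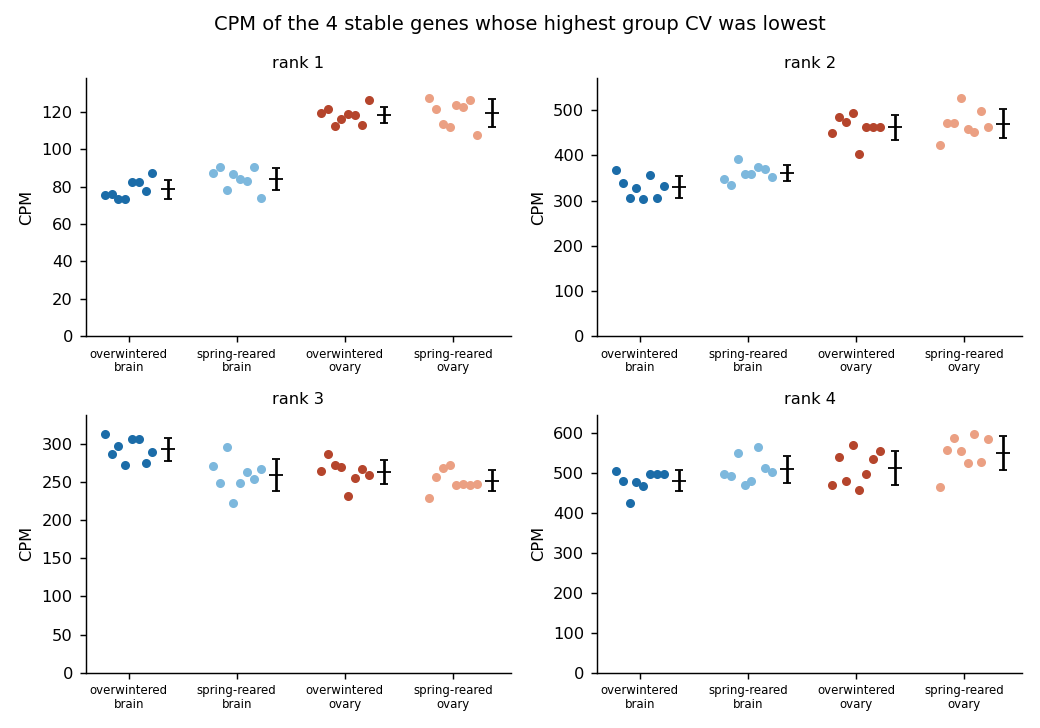
CPM (vertical axes, from 0) in each of the 32 libraries for the 4 stable genes whose highest group CV was lowest, by group; points are libraries in order of replicate number and the bar beside them is mean ± SD over 8 libraries. Ranks 1 and 2 have every ovary above every brain, while the organs overlap for ranks 3 and 4.

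The stable gene with the lowest mean, 35.8 CPM over all libraries, ranked 299 by highest CV, with a median of 41.1 CPM in overwintered brains and 32.4 CPM in overwintered ovaries. The gene with the highest mean, 559.7 CPM, ranked 33. Its highest library was 1.49-fold above its lowest. The smallest CV over all 32 libraries, 0.0783, belonged to the gene of rank 84, whose group medians were 451.6, 496.1, 473.9 and 523.8 CPM and whose libraries spanned 1.35-fold. At the CV limit, the last 3 genes inside had highest CVs of 0.149558, 0.149583 and 0.149748, and the first 3 genes outside that met the other limits had 0.150004, 0.150342 and 0.150535. The former had medians of 41.1, 74.4 and 283.9 CPM in overwintered brains and the latter 70.1, 110.3 and 111.9 CPM. Genes on either side of the limit thus had near-equal spread.

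Together the stable genes took up 6.21% ± 0.095 (SD, n = 8) of the gene counts in overwintered brains, 6.11% ± 0.105 in spring-reared brains, 7.50% ± 0.268 in overwintered ovaries and 7.53% ± 0.280 in spring-reared ovaries (n = 8 each). Brains ran from 5.90 to 6.34% and ovaries from 6.93 to 7.91%, so the organs did not overlap in this share. The narrow range within each group follows from the CV limit. The largest departure was overwintered ovary 5, the lowest library of its group for 167 of the 301 genes. Its stable genes had a median log2 shift of -0.19 from the group median, and the genes of the level range -0.37. In that library the 10 most abundant genes took up 13.7% of the counts, against 4.96 to 7.67% in the other overwintered ovaries, and the factor that edgeR's TMM method gave it was 0.775. The part of these abundant genes in the shift was not tested. Without overwintered ovary 5 the rule found 371 genes, of which 298 were among the 301, that is 99.0% of the stable genes and 80.3% of the longer list. Spring-reared ovary 1 was the lowest of its group for 122 genes, with a median log2 shift of -0.084. Of the 301 genes, 50 had an outlying value among the overwintered ovaries by Dixon's test, and for 44 of them it was a low value in overwintered ovary 5. The number with an outlying value was 11 in overwintered brains, 18 in spring-reared brains and 26 in spring-reared ovaries. The CV limit acts on the same values, so these numbers have no chance level to be read against.

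**Figure D3:**
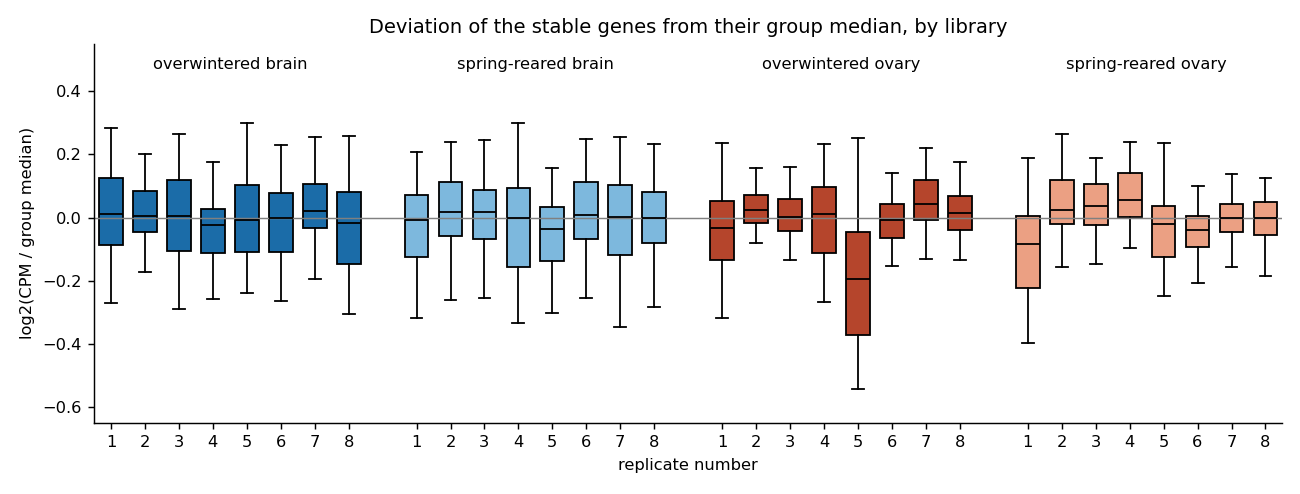
Deviation of the 301 stable genes from their own group median in each library, as log2(CPM / group median) on the vertical axis, by replicate number on the horizontal axis; boxes span the quartiles with the median as a line, and whiskers run from the 5th to the 95th percentile of genes. Overwintered ovary 5 has a median of -0.19 and spring-reared ovary 1 of -0.084, while the medians of the other libraries lie between -0.040 and 0.055.

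The comparison of brain with ovary was the only contrast that the rule had not used. It was fitted with edgeR on all 32 libraries and 10448 genes, averaged over the treatments, and all 301 stable genes were among those tested. Of the 301, 94 were higher in brain (31.2%) and 163 were lower in brain (54.2%) at an adjusted p under 0.05. Over all genes tested the shares were 42.1% higher and 40.7% lower, and over the genes of the level range 34.5% and 48.1%. The test depends on the spread within groups, which the rule holds small, so nothing is read from these shares about the stable genes. The median absolute log2 difference was 0.49 for the stable genes, 0.63 for the level range and 1.12 for all genes. The level limits also bound this value. The stable genes had higher middle CPM than the level range, as given above, and the part of level in the smaller value was not tested. The median signed log2 difference was -0.19 for the stable genes, -0.15 for the level range and 0.03 for all genes.

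The scaling of the libraries moved this split. With total counts, the scaling of the rule, 69 stable genes were higher and 193 lower in brain, against 37.6% and 45.5% of all genes, and the median log2 difference over all genes was -0.16 in place of 0.03. The higher calls were thus 36.6% of all calls with TMM factors and 26.3% with total counts. Called under both scalings in the same direction were 69 genes higher and 163 genes lower in brain, 0 were called in opposite directions, and 14 were called under neither. Without the 5 libraries set apart the calls with TMM factors were 90 and 167.

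Within single treatments, 73 stable genes were higher and 167 lower in brain among overwintered gynes, beside 38.4% and 36.8% of all genes. Among spring-reared gynes 99 were higher and 138 lower, beside 38.9% and 37.2% of all genes. With total counts the overwintered gynes had 67 higher and 181 lower, beside 35.9% and 38.9% of all genes, and the spring-reared gynes 62 higher and 190 lower, beside 32.2% and 43.7%. Which treatment had more genes higher in brain thus turned with the scaling. With TMM factors the call passed in both treatments and in the same direction in 206 genes (68.4%), beside 67.6% of all genes and 67.1% of the level range. The treatment ratio in the rule ties these comparisons to each other, so they are not independent of one another.

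By size, 130 of the 257 called genes differed by less than 1.5-fold between organs and 81 by 1.5-fold to less than 2-fold. At least 2-fold higher in brain were 19 genes and at least 2-fold lower 27 genes, and 3 genes differed at least 4-fold. Of the genes in the level range, 1015 of 3433 (29.6%) were called with less than 1.5-fold and 977 (28.5%) with at least 2-fold. Evenness was asked separately, by the 95% interval of the organ difference. Averaged over the treatments, this interval lay wholly within 1.2-fold in either direction for 47 of the 301 genes (15.6%). The same held for 7.60% of the level range and for 2.74% of all genes tested. The width of the interval depends on the spread that the rule limited, with a median SE of 0.063 for the stable genes and 0.088 for the level range, so the larger share is not read as a result about the stable genes. Of these 47 genes, 39 were not called and 8 were called with a difference that small. With total counts 49 genes had such an interval, but only 25 had it under both scalings. Within overwintered gynes alone, with TMM factors, 30 stable genes had such an interval (9.97%), beside 2.51% of the level range. Within spring-reared gynes 29 had it (9.63%), beside 3.15%. Intervals within a single treatment are wider, with a median SE of 0.089 for the stable genes in each treatment.

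By group medians in CPM, which are scaled by total counts, 218 genes lay higher in ovary and 83 in brain. For 58 genes (19.3%) the brain and ovary medians lay within 1.2-fold in both treatments, beside 11.1% of the level range. The ovary median was at least 2-fold above the brain median in both treatments for 42 genes (14.0%; 19.3% of the level range), and the reverse held for 14 genes (4.65%; 6.79% of the level range). In 32 genes (10.6%) all 16 brains lay above all 16 ovaries, beside 14.5% of all genes tested and 8.48% of the level range. In 103 genes (34.2%) all brains lay below all ovaries, beside 21.0% of all genes tested and 26.0% of the level range. Separation of the organs also depends on the spread and the treatment ratio that the rule limited, so these shares are descriptions. Under total counts the median of all genes also lay lower in brain.

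**Figure D4:**
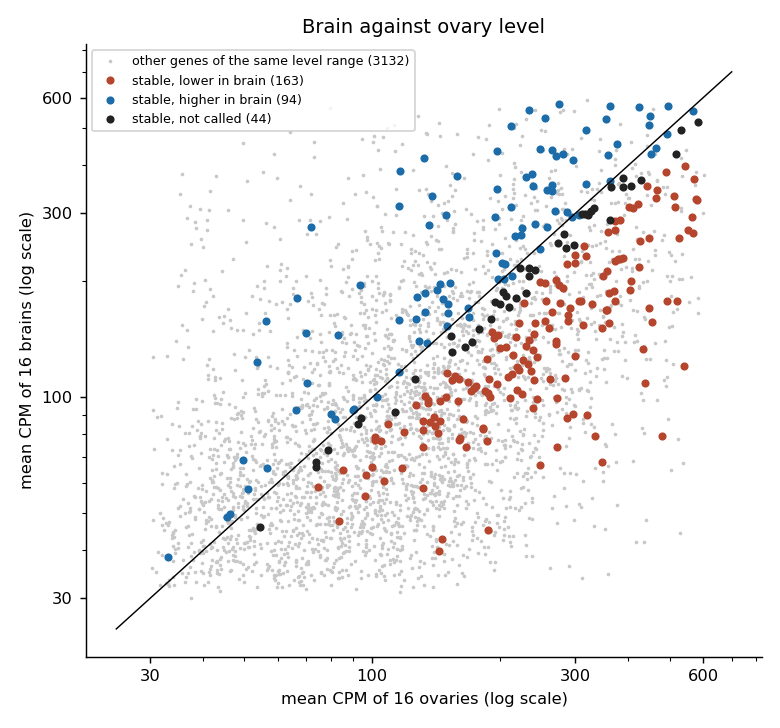
Mean CPM of 16 brains (vertical axis, log scale) against mean CPM of 16 ovaries (horizontal axis, log scale), both scaled by total counts, for the 301 stable genes coloured by their edgeR call with TMM factors and the other 3132 genes of the level range in grey; the line marks equal CPM. Genes lower in brain (163) outnumber those higher in brain (94), and the 44 uncalled genes all lie below the line; the axes use total counts and the calls use TMM factors.

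Of the genes higher in brain, SINVBB1_00529 had the largest difference. Its CPM ran from 227.3 to 327.4 in overwintered brains with a median of 289.2, and from 240.0 to 310.4 in spring-reared brains with a median of 269.9. In overwintered ovaries it ran from 55.4 to 79.8 with a median of 72.0, and in spring-reared ovaries from 57.4 to 93.4 with a median of 72.8. The organs were far apart and the treatments overlapped in each organ. The log2 difference was 2.14 ± 0.07 (SE; edgeR adjusted p = 8.27e-24), and all 16 brains were above the ovary median.

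The next largest, SINVBB1_02569, ran from 286.0 to 413.6 CPM in overwintered brains (median 344.5) and from 388.4 to 512.4 CPM in spring-reared brains (median 404.7). The ovaries ran from 81.7 to 125.7 CPM (median 113.5) and from 106.2 to 141.8 CPM (median 118.9). All brains were above all ovaries, by a log2 difference of 1.91 ± 0.08 (SE; edgeR adjusted p = 2.25e-21). It met the treatment ratio by CPM medians, yet the fit with TMM factors gave a log2 difference between overwintered and spring-reared brains of -0.41 (edgeR adjusted p = 0.00996).

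Of the genes lower in brain, SINVBB1_02232 had the largest difference. It ran from 68.1 to 91.6 CPM in overwintered brains (median 81.1) and from 59.1 to 95.7 CPM in spring-reared brains (median 78.6). In overwintered ovaries it ran from 394.8 to 582.1 CPM (median 499.0) and in spring-reared ovaries from 366.1 to 538.0 CPM (median 471.0). Every brain was below every ovary, and the log2 difference was -2.42 ± 0.08 (SE; edgeR adjusted p = 2.43e-24).

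SINVBB1_01298 followed, with 66.5 to 93.7 CPM in overwintered brains (median 70.9) and 42.9 to 69.0 CPM in spring-reared brains (median 64.2). Its ovaries ran from 272.0 to 403.8 CPM (median 360.9) and from 301.3 to 380.9 CPM (median 334.6), again above every brain. The log2 difference was -2.17 ± 0.06 (SE; edgeR adjusted p = 6.66e-25). Over 41 alternative fits the differences of the 4 genes ranged from 1.95 to 2.16, 1.73 to 1.93, -2.60 to -2.38 and -2.36 to -2.14, and all passed the threshold.

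The smallest difference between organs, averaged over the treatments, belonged to SINVBB1_01739. It ran from 152.7 to 210.0 CPM in overwintered brains (median 170.0), from 154.0 to 196.1 CPM in spring-reared brains (median 173.9), from 165.7 to 220.5 CPM in overwintered ovaries (median 210.3) and from 182.1 to 208.7 CPM in spring-reared ovaries (median 193.4). The organs overlapped, although the CPM medians were higher in ovary and only 1 of the 16 brains lay above the ovary median. With TMM factors the log2 difference was -0.00030 ± 0.053 (SE; 95% interval -0.11 to 0.11; edgeR adjusted p = 0.996). With total counts it was -0.19, which passed the threshold (edgeR adjusted p = 0.000709). With TMM factors the overwintered minus spring-reared difference was -0.14 in brain and 0.14 in ovary (edgeR adjusted p = 0.240 and 0.350).

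SINVBB1_07326 was the other gene of this kind, with medians of 201.6 CPM in overwintered brains, 232.1 CPM in spring-reared brains, 249.8 CPM in overwintered ovaries and 237.1 CPM in spring-reared ovaries. Its libraries ran from 170.7 to 250.0 CPM in brain and from 184.7 to 280.3 CPM in ovary. Only 2 of the 16 brains lay above the ovary median. With TMM factors the log2 difference was -0.0021 ± 0.071 (SE; 95% interval -0.15 to 0.14; edgeR adjusted p = 0.979), and with total counts -0.18 (edgeR adjusted p = 0.00165). It was also called lower in overwintered than in spring-reared brains with TMM factors, by a log2 difference of -0.34 (edgeR adjusted p = 0.0253). The same treatment difference in ovary was 0.10 (edgeR adjusted p = 0.720). In both genes the organ difference with TMM factors was thus negative in overwintered and positive in spring-reared gynes. The near-zero value is their average. Both genes were picked for the smallest difference under TMM factors, and total counts moved the median of all genes from 0.03 to -0.16, so the difference between the scalings is not particular to them.

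**Figure D5:**
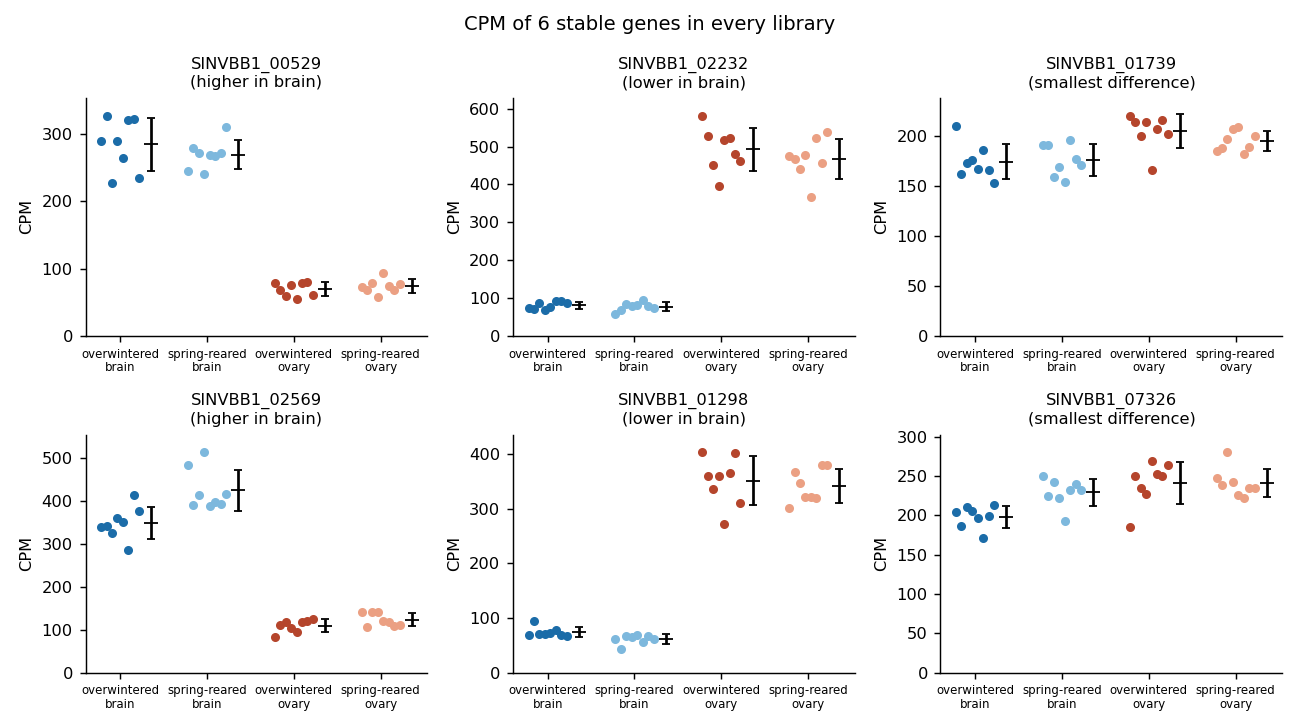
CPM (vertical axes, from 0) in each of the 32 libraries for the 2 stable genes with the largest difference in each direction between brain and ovary and the 2 with the smallest difference, by group; points are libraries in order of replicate number and bars are mean ± SD over 8 libraries. The organs do not overlap in the left and middle columns and overlap in the right column.

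Between treatments the rule had held the ratio of medians close to 1, with a median of 1.02 in brain and 0.998 in ovary. The fit is given beside it as a description. With TMM factors 23 stable genes were called between overwintered and spring-reared brains, all of them lower after overwintering, beside 9.95% of all genes called in either direction. In ovary 7 were called, all higher after overwintering, beside 4.21% of all genes. With total counts the brain calls were 10 higher and 4 lower, beside 12.7% of all genes, and the ovary calls 2 higher and 1 lower, beside 4.18%. The direction of the brain calls therefore moved with the scaling. The mean TMM factor was 0.983 for overwintered brains, 0.899 for spring-reared brains, 1.05 for overwintered ovaries and 1.09 for spring-reared ovaries.

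Which genes count as stable also rested on the scaling. With TMM-adjusted CPM the same limits were met by 241 genes, of which 129 were among the 301, that is 42.9% of the stable genes and 53.5% of the other list. On TMM-adjusted CPM, the 301 genes exceeded the CV limit in 60 cases in overwintered brains, 37 in spring-reared brains, 85 in overwintered ovaries and 3 in spring-reared ovaries. The treatment ratio then left its limits for 26 genes in brain, where its median was 0.932, and for 8 genes in ovary, where its median was 1.04. Of the 241 genes, 93 were higher and 102 lower in brain. For the 129 genes on both lists these numbers were 50 and 59, and for the 172 others among the 301 they were 44 and 104. More genes were also lower than higher in brain in the level range as a whole (48.1% against 34.5%), and no test was made between these lists.

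With total counts, the stable genes moved together from library to library more in ovary than in brain, and with TMM factors this order did not hold for spring-reared ovaries. With total counts, the median Pearson r over all pairs of stable genes, across the 8 libraries of a group, was 0.279 in overwintered ovaries, 0.193 in spring-reared ovaries, 0.0204 in overwintered brains and 0.0193 in spring-reared brains. Over the genes of the level range it was 0.348, 0.0601, 0.0401 and 0.0163. With TMM factors the values for the stable genes were 0.565, 0.0837, 0.242 and 0.0927, and for the level range 0.115, 0.0119, 0.0137 and 0.0025. All pairs share the same 8 libraries and their scaling, and overwintered ovary 5, the library with the largest shift, is among them. The rule limited the spread under total counts, so TMM factors add to every stable gene a library term that all of them share. The values with TMM factors, and their distance from the level range, are therefore not read as a result about the stable genes.

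Between the organs of a gyne, deviations of a stable gene were weakly related at most. The correlation of the brain's and the ovary's deviation from their group means, over 16 gynes, had a median of 0.0411 over the stable genes with an SD of 0.290, beside 0.0683 over the level range and 0.0437 over the 10336 genes tested that had counts in both organs. It was 0.168 over the 11 gynes without a library set apart, where the level range gave 0.235. With TMM factors it was -0.0967, beside 0.0381 over the level range and 0.0435 over all genes. The points of each correlation share the scaling of their libraries, and values this small, in which the sign for the stable genes turned with the scaling, are no finding.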

How the data were processed

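RNA of 16 brains and 16 ovaries was analysed from whole-number gene counts that the authors deposited. The tools named, per the submitters' processing notes, are Trim Galore 0.6.5, STAR 2.7.3a and edgeR. The genome build is not given in the sources used here, nor is the annotation. The CPM tables that the authors deposited list 7655 genes for brain and 8031 for ovary, hold all 301 stable genes, and were used for no result. Their values equal, within 1e-06, the counts over the sum of the listed genes alone, not over all gene counts as here. Smart-seq2 does not mark strand, so reads of a gene and its antisense partner cannot be told apart; reads on the multimapping and ambiguous lines were not assigned to genes. The 4 lines that name no gene held 32.0 to 47.2% of reads in brains and 16.5 to 21.2% in ovaries, and stayed out of library sizes and tests.

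The members, lists and tests were chosen with earlier results of these data known. Counts were fitted with edgeR 4.0.16 in R 4.3.3, with 4 group means over 32 libraries, TMM factors, genes kept by filterByExpr, and robust quasi-likelihood F-tests, and adjusted by Benjamini-Hochberg over all 10448 genes, with a threshold of 0.05. A standard error is the absolute log2 difference over the square root of F, and intervals cover 95%. Deviations between organs used log2(CPM + 1). Identifiers were printed for the 2 genes with the largest called organ difference in each direction and the 2 with the smallest; other genes are described by rank. Replicates are separate gynes and colonies per the labels, and no pair of libraries in a group held counts as alike as resampling of reads would give (lowest chi-square over degrees of freedom 19.6).

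Alternatives were RLE factors, total counts, quantile normalization and voom with limma 3.58.1, DESeq2 1.42.0, other filters and thresholds, other limits in the rule, blocks, and leaving out libraries. The brain and ovary of a gyne form pairs through the colony codes in the labels, and their deviations from the group means correlated by a mean of 0.131 in overwintered and 0.130 in spring-reared gynes. A planned comparison of strand columns could not be made because the files analysed here hold a single count column.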

Additional observations from a re-analysis of the deposited data

Results flagged for a closer look

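Of 36 sets of 8 values examined with Dixon's test, 6 held a value far from the rest. Most sets hold values of stable genes, on which the CV limit acts, and the sets share libraries. This number therefore has no chance level to be read against. The median log2 shift of the stable genes was -0.19 in overwintered ovary 5 (others -0.033 to 0.044) and -0.035 in spring-reared brain 5 (others -0.0064 to 0.019). The gene counts of overwintered ovary 3 came to 23656547 (others 11444437 to 15779666). SINVBB1_01298 reached 93.7 CPM in overwintered brain 2 (others 66.5 to 78.8). SINVBB1_01739 lay at 165.7 CPM in overwintered ovary 5 (others 199.8 to 220.5), the library with the largest shift of the stable genes. SINVBB1_07326 reached 280.3 CPM in spring-reared ovary 3 (others 221.6 to 247.4).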

How the results depend on the processing

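Of 675 values recomputed, 637 stayed close, 36 moved and 2 passed the threshold anew. The latter were the organ differences, with total counts, of the 2 genes with the smallest averaged difference, given above. Close meant the same side of the threshold and the same direction for tested values, and within 1.5 times for counts. The correlation between organs counted as close within the SD over genes, although its sign turned with TMM factors. Most of the 675 values came from leaving out a single library, and so rest on nearly the same data. Counts were compared by size alone, not by which genes they held. The 241 genes chosen on TMM-adjusted CPM and the 244 chosen with RLE factors therefore counted as close. Each of these lists shared only 129 genes with the stable genes, that is 42.9% of the stable genes. The number of stable genes was 81 with a CV limit of 0.12, 632 with 0.18 and 171 with narrower ratio limits (from 0.9 upwards), and ranged from 275 to 371 when each library was left out in turn, with the 371 without overwintered ovary 5. With an absolute log2 difference of at least 1, the genes higher and lower in brain were 19 and 27, 18 and 35 among overwintered and 25 and 22 among spring-reared gynes; with total counts 62 were higher among the latter. Genes chosen on TMM-adjusted CPM had 102 lower calls. The gyne as a replicate block gave 90 higher and 163 lower calls and changed no organ count by over 1.5 times.

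Calls between treatments moved most. In brain they were 14 with total counts, 15 with quantile normalization, 45 with DESeq2, 5 at an adjusted p under 0.01 and 0 at a log2 difference of at least 1, for which the ratio limits leave little room. In ovary the same settings gave 3, 15, 13, 1 and 0. Leaving out single libraries gave 12 to 42 in brain (42 without overwintered brain 1; 12, 15, 14 and 14 without overwintered brains 2, 4, 6 and 7; 14 without spring-reared brain 7; 15 without spring-reared ovary 7) and 3 to 20 in ovary (20 without overwintered ovary 1; 11 without overwintered brain 1; 3 and 4 without overwintered ovaries 4 and 5; 4 without spring-reared ovary 1 or 3). The causes were not tested. Replicate numbers of the treatments mark no shared animal, and same-numbered libraries did not deviate together (mean correlation -0.051 in brain, -0.065 in ovary); with them as a replicate block the calls were 4 and 2. Alternatives on stranded counts could not be run.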
